A study of Mus musculus with 14 samples.

Results

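Isoforms of glycolysis used by germ cells and their widely expressed counterparts were followed in the juvenile mouse testis, in total testis RNA and in RNA bound to ribosomes of germ cells. The set held 10 of the 102531 genes and assembled features in the tables. Members were chosen by name: Ldhc and Gapdhs as isoforms of germ cells, Ldha, Ldhb and Gapdh as their widely expressed counterparts, Hk1, Eno1, Aldoa and Gpi1 as further enzymes of the pathway, and Slc2a3 as a glucose transporter. All transcripts of a gene were summed.

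Glycolysis splits glucose into pyruvate, and lactate dehydrogenase converts pyruvate and lactate into each other. During spermatogenesis, germ cells switch on copies of several glycolytic enzymes that other tissues do not use. Ldhc, the testis form of lactate dehydrogenase, appears in meiotic spermatocytes. Gapdhs, the sperm form of glyceraldehyde-3-phosphate dehydrogenase, appears in spermatids and is attached to the fibrous sheath of the sperm tail. Sertoli cells, the somatic nurse cells of the tubule, supply lactate to spermatocytes and spermatids.

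The testes came from 7 C57BL/6 males at 21 dpp (days post partum), 4 Adad2 mutants (Adad2M/M, the em3 allele) and 3 wild types (Adad2+/+). Both genotypes carried Stra8-iCre and Rpl22-HA (RiboTag, heterozygous), so that a tagged ribosomal protein was made where Stra8-iCre had acted, in differentiating germ cells. Each animal gave an immunoprecipitated library (IP, RNA bound to tagged ribosomes) and an input library (total RNA of the same lysate), 14 libraries in all. The term ribosome association is used for IP over input, following the study. Mutant animals are called 12, 69, 93 and 94, and wild-type animals 121, 140 and 17, as in the labels.

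Total counts were 25037235 to 30871330 in IP and 22987974 to 30330450 in input libraries. Annotated genes above 0 numbered 12744 to 15024 in mutant IP against 19655 to 21880 in wild-type IP, and 15438 to 27002 in mutant input against 25319 to 27791 in wild-type input, with mutants 12 and 69 the lowest in input. Adad2 itself, the mutated gene, had 8.35, 8.23, 5.95 and 4.30 TPM (transcript abundance scaled to length and library) in mutant IP against 68.9, 72.8 and 76.2 TPM in wild-type IP, which fitted the labels. Summed TPM of 15 round spermatid markers was 188 to 303 in mutant input against 376 to 473 in wild-type input, and 325 to 416 in mutant IP against 556 to 590 in wild-type IP, with Akap4, Tnp1, Tnp2, Prm1 and Prm2 at 0 in all mutant IP libraries. Of the 15 markers, 8 to 9 were above 0 in each mutant IP library against 10 to 15 in each wild-type IP library. Some were thus at 0 in wild-type IP too. Summed TPM of 9 late pachytene markers was 625 to 677 in mutant input against 895 to 1068 in wild-type input, and 3278 to 3806 in mutant IP against 4248 to 4802 in wild-type IP. Summed TPM of 8 early meiotic markers overlapped in input, at 854 to 1005 in mutants against 865 to 977 in wild types, and was 4461 to 4985 in mutant IP against 3748 to 4415 in wild-type IP. Summed TPM of 8 spermatogonial markers was 568 to 800 in mutant IP against 450 to 547 in wild-type IP. Both of these sums thus stood higher in every mutant IP library. Gene by gene in IP, 4 early meiotic markers were higher in mutants and 4 lower (median log2 difference 0.02). All 8 spermatogonial markers were higher there (median 0.49). The spermatogonial sum was 43.1 to 82.1 in mutant input against 61.7 to 72.9 in wild-type input. In these bulk samples, fewer cells of a type and less RNA per cell cannot be told apart. The part of these cell type markers in the results below was not tested.

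Upstream sequences of both germ cell isoforms and of Ldha are shown because the genes were compared in pairs (RefSeq windows, build GRCm38.p6, 5′ to 3′, ending at the base before the start, except for Ldhc). The Ldhc window, chr7:46861013-46861232 (+), was printed to 220 bases, and its last 30 bases lie within the GENCODE transcript, whose start is 60 bases before the RefSeq start. The Ldha window is chr7:46846832-46847081 (+) and the Gapdhs window chr7:30743682-30743931 (-). Capitals mark TGACG, the core of the cyclic AMP response element, and GGGCGG, the GC box, both searched on both strands.
Ldhc: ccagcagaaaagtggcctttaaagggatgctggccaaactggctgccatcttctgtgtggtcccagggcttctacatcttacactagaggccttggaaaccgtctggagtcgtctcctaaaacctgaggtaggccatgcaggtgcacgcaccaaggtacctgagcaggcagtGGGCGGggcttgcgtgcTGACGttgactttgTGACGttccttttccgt
Ldha: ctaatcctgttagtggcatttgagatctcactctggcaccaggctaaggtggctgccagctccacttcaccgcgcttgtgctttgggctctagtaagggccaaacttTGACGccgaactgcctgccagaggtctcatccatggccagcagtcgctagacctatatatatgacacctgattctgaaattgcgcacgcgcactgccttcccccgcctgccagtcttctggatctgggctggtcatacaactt
Gapdhs: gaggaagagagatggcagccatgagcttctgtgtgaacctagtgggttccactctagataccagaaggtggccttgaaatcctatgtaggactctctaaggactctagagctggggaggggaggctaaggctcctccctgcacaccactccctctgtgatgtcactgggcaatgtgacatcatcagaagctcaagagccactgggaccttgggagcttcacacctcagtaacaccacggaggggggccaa
Ldhc held TGACG at 61 and 47 bases and GGGCGG at 78 bases before the RefSeq start. Ldha held 1 TGACG, at 143 bases, and neither string was found in the Gapdhs window. Of 32851 RefSeq windows of 250 bases, 17.8% held TGACG and 32.7% held GGGCGG. A match is a description of letters and not a tested site.

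Hk1 and Slc2a3 were deposited as several transcripts that differ in sequence, and these are shown because their shares differed between libraries. Hk1, which phosphorylates glucose, has 20 deposited transcripts on chromosome 10 (GRCm38, minus strand). Capitals below are the coding bases from the start codon to the exon that the 3 transcripts share, and lower case is the first 12 bases of that exon.
Hk1-203: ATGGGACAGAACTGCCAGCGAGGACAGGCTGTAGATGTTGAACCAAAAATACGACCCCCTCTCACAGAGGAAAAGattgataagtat
Hk1-205: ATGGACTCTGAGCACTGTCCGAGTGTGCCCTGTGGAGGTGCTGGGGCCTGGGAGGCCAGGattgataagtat
Hk1-202: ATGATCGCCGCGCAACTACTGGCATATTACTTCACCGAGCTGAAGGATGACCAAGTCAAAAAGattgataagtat
From the start codon to the end of the printed string, Hk1-203 (chr10:62315537-62358362) has 75 coding bases before the shared exon, 27 in the exon that holds the start codon and 48 in the next, Hk1-205 (chr10:62315537-62342560) has 60 bases of another exon, and Hk1-202 (chr10:62315537-62340075) has 63 bases of the form known for binding to mitochondria. Of the 20 transcripts, 13 hold the exon with the first of these start codons, called the spermatogenic start exon here.
Slc2a3 encodes the glucose transporter GLUT3 (chromosome 6, minus strand). The next strings are 15 bases on each side of a junction, with the bases after the shared exon in capitals.
Slc2a3-201: aatgcacctgagacaATCCTAAAGGACTTT
Slc2a3-203: aatgcacctgagacaACGCAACTCTATGCT
Slc2a3-201 has 10 exons and 3959 bases with a last exon of 2332 bases. Slc2a3-203, annotated as a target of nonsense-mediated decay, has 9 exons and 1321 bases. It skips an exon of 161 bases and its last exon is 210 bases long.

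Levels between genes were compared in TPM, which is scaled to transcript length. Ldhc was the most abundant of the 10 in input, at 477 ± 89.1 TPM in mutants (SD, n = 4) against 845 ± 89.8 TPM in wild types (SD, n = 3). Gapdhs was the least abundant in input, at 2.15 ± 1.24 TPM in mutants against 9.91 ± 3.45 TPM in wild types. In wild-type input the order below Ldhc was Slc2a3 at 436 TPM, Ldha at 291, Hk1 at 98.8, Gapdh at 86.3, Eno1 at 82.6, Ldhb at 79.3, Aldoa at 63.5 and Gpi1 at 23.6 TPM. Hk1, Gapdh, Eno1 and Ldhb overlapped with their neighbours in that order. In mutant input the order below Ldhc was Slc2a3 at 232 TPM, Ldha at 187, Ldhb at 113, Gapdh at 111, Aldoa at 70.0, Eno1 at 49.0, Hk1 at 42.3 and Gpi1 at 32.1 TPM, with overlap between Slc2a3 and Ldha, among Ldhb, Gapdh and Aldoa, and among Eno1, Hk1 and Gpi1.

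In IP, Slc2a3 and Ldhc led in both genotypes. Slc2a3 was at 1427 ± 311 TPM in mutant IP against 2304 ± 91.4 TPM in wild-type IP, and Ldhc at 1186 ± 154 TPM in mutant IP against 2035 ± 220 TPM in wild-type IP. Next in mutant IP came Ldha at 284 TPM, Gapdh at 268, Gpi1 at 173, Hk1 at 132, Eno1 at 76.1 and Aldoa at 64.2 TPM. In wild-type IP they were Ldha at 388, Gapdh at 238, Hk1 at 208, Gpi1 at 131, Eno1 at 77.7 and Aldoa at 60.0 TPM. Slc2a3 and Ldhc overlapped in mutant IP and did not in wild-type IP, and Gapdh overlapped with Ldha in mutant IP alone. Ldhb and Gapdhs stood last in both, at 0.21 and 0 TPM in mutant IP against 19.9 and 2.48 TPM in wild-type IP.

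**Figure D1:**
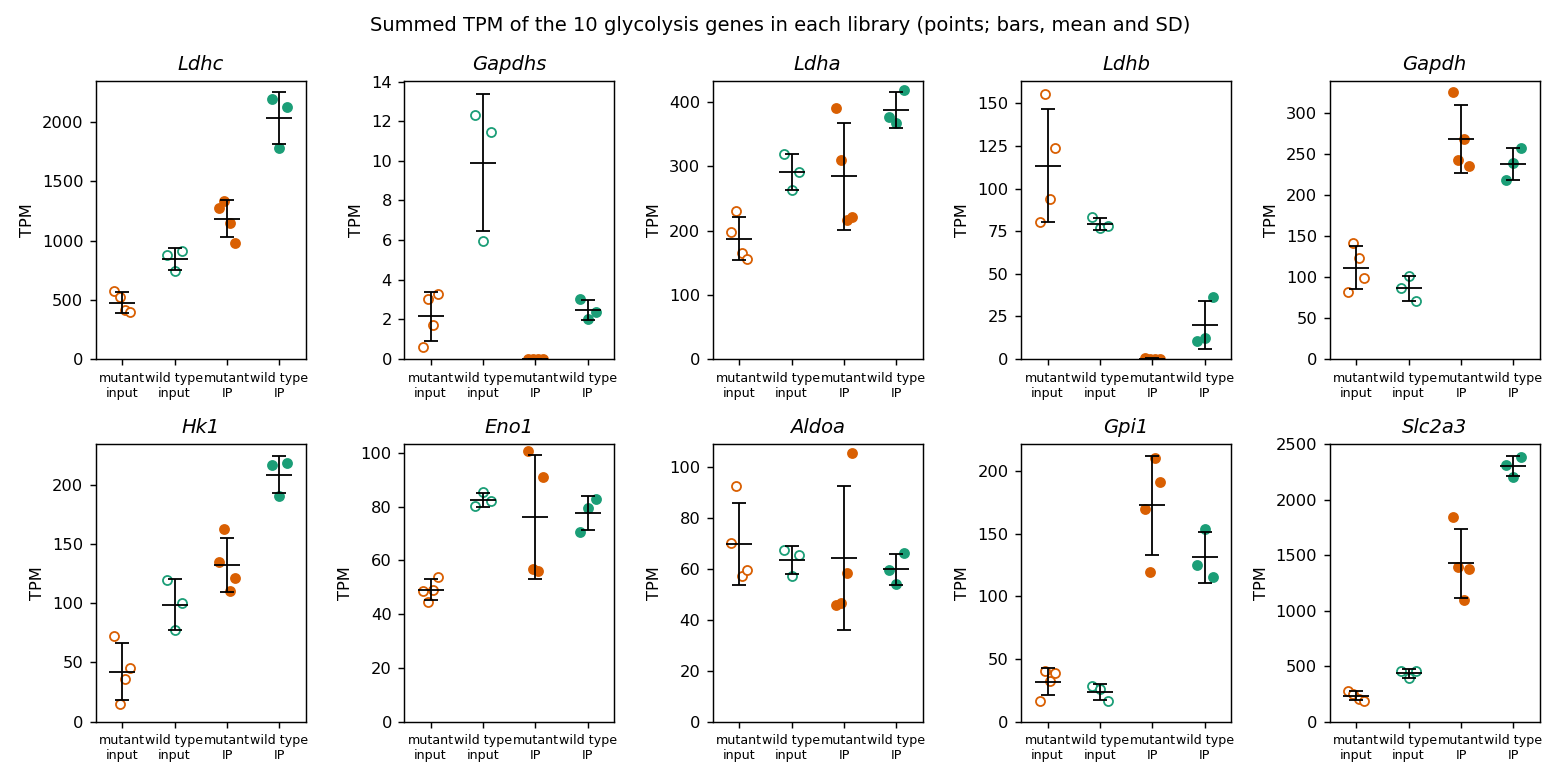
Summed TPM of each of the 10 genes in every library, by genotype and fraction (orange, mutant, and green, wild type; open points, input, and filled points, IP; bars, mean and SD). Gapdhs sits at 0 in all 4 mutant IP libraries, and Ldhc and Slc2a3 lie lower in mutants than in wild types in both fractions.

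The germ cell isoforms were first compared between genotypes in input. Ldhc had 578, 527, 410 and 395 TPM in mutants 12, 69, 93 and 94 against 876, 744 and 916 TPM in wild types 121, 140 and 17. Every mutant lay below every wild type. The fitted log2 difference was -0.61 ± 0.18 (SE), with an adjusted p of 0.357 by edgeR's quasi-likelihood test with Benjamini-Hochberg adjustment over all features, so the difference did not pass. Gapdhs had 0.59, 3.02, 1.74 and 3.27 TPM in the 4 mutants against 12.3, 5.95 and 11.5 TPM in the 3 wild types, from 29.5 to 157 counts in mutants against 243 to 480 counts in wild types. Its groups did not overlap either, and the log2 difference was -2.06 ± 0.65, with an adjusted p of 0.416 by the same test.

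Among the widely expressed counterparts, Ldha had 198, 230, 165 and 156 TPM in mutant input against 319, 263 and 291 TPM in wild-type input, again with no overlap (log2 difference -0.42 ± 0.14, edgeR adjusted p = 0.474). Ldhb, the heart form of lactate dehydrogenase, had the opposite sign. On the scale of normalised CPM (counts scaled to library size, not to length), Ldhb was at 149, 260, 170 and 215 in mutant input against 113, 114 and 131 in wild-type input, a log2 difference of 0.73 ± 0.20 (edgeR adjusted p = 0.347). On the TPM scale mutant 12 was at 80.6 and fell among the wild types at 76.6 to 83.1. Gapdh had 108, 144, 147 and 120 CPM in mutants against 87.2, 102 and 97.7 CPM in wild types (log2 difference 0.44 ± 0.14, edgeR adjusted p = 0.443), and its TPM values overlapped.

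Slc2a3 had the smallest p of the 10 in input. It stood at 278, 254, 207 and 191 TPM in mutants against 457, 390 and 460 TPM in wild types, a log2 difference of -0.73 ± 0.13 (unadjusted p = 0.00054, edgeR adjusted p = 0.329). Eno1, which makes phosphoenolpyruvate, had 48.5, 44.4, 49.2 and 54.0 TPM in mutants against 80.3, 85.3 and 82.2 TPM in wild types. Its log2 difference was -0.44 ± 0.14 (edgeR adjusted p = 0.450), and it was not seen once near-identical copies were added (below). Hk1 varied widely among mutants, at 72.6, 14.9, 36.4 and 45.5 TPM against 120, 77.0 and 99.8 TPM in wild types. Aldoa, which splits fructose bisphosphate, and Gpi1, which converts glucose-6-phosphate, overlapped between genotypes, with log2 differences of 0.24 ± 0.12 and 0.29 ± 0.15.

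None of the 10 genes passed an adjusted p of 0.05 in input, where 3 of 36572 features did, or 0.00820% (higher 0.00547%, lower 0.00273%). By unadjusted p under 0.05, 7 of the 10 differed, 2 higher (Ldhb, Gapdh) and 5 lower (Ldhc, Gapdhs, Ldha, Eno1, Slc2a3), beside 1.60% of features higher and 4.76% lower. These 7 were also the genes without overlap in CPM, a pattern that 2.58% of features showed upward and 11.3% downward. DESeq2 called 4 of them (Gapdhs, Ldhb, Gapdh and Slc2a3) among 1143 features, and limma on TPM called none. The median log2 difference was -0.43 over the 10 genes and -0.18 over all features. Relative to that overall median the differences were -0.43 for Ldhc, -0.24 for Ldha, 0.91 for Ldhb and -0.55 for Slc2a3.

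Ribosome-bound RNA was compared next, mutant IP against wild-type IP. Ldhc had 1275, 1331, 1152 and 984 TPM in mutants against 2194, 1783 and 2128 TPM in wild types, with no overlap. Its log2 difference was -0.76 ± 0.11 (unadjusted p = 0.000159, edgeR adjusted p = 0.114). Slc2a3 had 1845, 1393, 1094 and 1375 TPM in mutant IP against 2315, 2208 and 2390 TPM in wild-type IP, a log2 difference of -0.96 ± 0.24 (edgeR adjusted p = 0.114). Hk1 had 134, 162, 110 and 121 TPM in mutant IP against 216, 190 and 218 TPM in wild-type IP, a log2 difference of -0.82 ± 0.15 (edgeR adjusted p = 0.114). For all of these the lowest wild type exceeded the highest mutant. Ldha had 391, 310, 216 and 221 TPM in mutant IP against 377, 367 and 420 TPM in wild-type IP. Mutant 12 reached the wild types on this scale and not in CPM, where the log2 difference was -0.55 ± 0.16 (edgeR adjusted p = 0.119).

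Gapdhs was at 0 in all 4 mutant IP libraries, against 72.9, 48.1 and 61.9 counts in wild types 121, 140 and 17. Set against a floor of 3 counts in each library, which was at most 0.114 CPM, it was at least 21.2-fold lower in mutant IP than the wild-type mean of 2.41 CPM. This floor covers counting error only. Of 53 other annotated genes whose wild-type IP counts lay in the same range, 3 (5.66%) were at 0 in all 4 mutant IP libraries. Ldhb had 18.7 counts in mutant 12 and 0 in mutants 69, 93 and 94, against 241, 282 and 870 counts in wild-type IP. Of 2366 other genes in that range, 8 (0.338%) were at 0 in 3 or more mutant IP libraries. The log2 difference of Ldhb was -6.57 ± 2.21 (edgeR adjusted p = 0.212), a fitted value that rests on these zeros. RNA spike-ins were also seen less often there, with 43 to 54 species above 0 in mutant IP against 67 to 71 in wild-type IP. The part of library complexity in the zeros was not tested.

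Ldhb is abundant in Sertoli cells and other somatic cells, so the somatic markers are given beside it. The 13 Sertoli cell markers summed to 320 to 372 TPM in mutant IP against 295, 333 and 614 TPM in the IP of wild types 121, 140 and 17. Wild type 17 also had the highest Ldhb, at 36.4 TPM against 10.7 in 121 and 12.6 in 140. In input the Sertoli cell markers summed to 880 to 1159 TPM in mutants against 866 to 895 TPM in wild types. Gene by gene, 9 of 13 Sertoli cell markers were lower in mutant IP and 4 higher (median log2 difference -0.62, all features -0.15). In IP/input between genotypes 11 of 12 were lower and 1 higher (median -1.54, all features -0.29). There the medians of Leydig, myoid, macrophage and vessel markers were -1.86, -0.64, -4.17 and -4.91, with 1, 1, 1 and 0 markers higher. None of these markers passed. The part of these cells in the Ldhb values was not tested.

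The other 4 genes overlapped between genotypes in IP. Gapdh without its copies was at 268 ± 41.2 TPM in mutants against 238 ± 19.6 TPM in wild types, Eno1 at 76.1 ± 23.1 against 77.7 ± 6.47, Aldoa at 64.2 ± 28.3 against 60.0 ± 6.11, and Gpi1 at 173 ± 39.4 against 131 ± 20.2 TPM. Mutant animals varied more than wild types in each. None of the 10 genes passed in IP, where 2 of 26186 features did, or 0.00764% (0.00382% in each direction), Adad2 among them (log2 difference -3.44 ± 0.24, edgeR adjusted p = 0.0140). By unadjusted p under 0.05, 6 genes were lower (Ldhc, Gapdhs, Ldha, Ldhb, Hk1, Slc2a3) and 0 higher, beside 10.3% and 1.34% of features. The same 6 lay below every wild type in CPM, as did 14.5% of features. DESeq2 called 5 of them, without Ldha, among 2504 features. Limma on log2(TPM + 0.1) called Ldhc, Gapdhs, Ldhb and Slc2a3, and on log2(TPM + 1) the first 3 of these. Gapdhs and Ldhb passed the expression filter of these fits through wild-type IP alone. Their lower direction was thus set in advance and is no support. The lower genes apart from them were Ldhc, Ldha, Hk1 and Slc2a3. The median log2 difference was -0.66 over the 10 genes and -0.15 over all features. The first of these medians includes Gapdhs and Ldhb, so it does not measure a shift of the set. Gapdh, Eno1, Aldoa and Gpi1 had log2 differences of -0.02, -0.08, 0.03 and 0.33.

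Ribosome association was then taken within each animal. In wild types, 8 of the 10 genes passed, 5 higher in IP and 3 lower, beside 19.4% of 34864 features called in either direction, 13.0% higher and 6.37% lower. Gpi1 showed the largest rise, with a log2 IP/input of 1.96 ± 0.12 (edgeR adjusted p = 0.00634), followed by Slc2a3 at 1.54 ± 0.09 (edgeR adjusted p = 0.00634). Gapdh rose by 0.90 ± 0.09 (edgeR adjusted p = 0.00924), Ldhc by 0.90 ± 0.14 (0.0252) and Hk1 by 0.84 ± 0.11 (0.0170), all as edgeR adjusted p on the log2 scale. IP was lower than input in 3 genes, Ldhb with a log2 IP/input of -2.62 ± 0.34 (edgeR adjusted p = 0.0159), Gapdhs with -2.31 ± 0.34 (0.0203) and Aldoa with -0.61 ± 0.09 (0.0213). The germ cell isoforms thus differed in direction, with Ldhc higher and Gapdhs lower in IP than in input. Ldha and Eno1 did not pass, at 0.01 ± 0.09 and -0.38 ± 0.11. Of 13 alternative fits, 2 called Ldha higher and 6 turned its sign, and 4 called Eno1 lower. These calls rest on 3 animals, and 0 genes passed without wild type 121, 0 without 140 and 5 without 17.

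In mutants, 4 of the 10 genes passed, beside 6.35% of 22918 features called higher and 3.56% called lower. Gpi1 rose by 1.63 ± 0.21 (edgeR adjusted p = 0.00718) and Slc2a3 by 0.93 ± 0.18 (edgeR adjusted p = 0.0293) on the log2 scale. Ldhb fell to 18.7 counts in the IP of mutant 12 and 0 in the other 3, against 3782 to 7123 counts in mutant input (edgeR adjusted p = 0.0391). Ldha fell by 0.46 ± 0.09 on the log2 scale of CPM (edgeR adjusted p = 0.0276), but its direction flips to 0.58 on log2(TPM + 0.1) (limma adjusted p = 0.0312) and to 0.17 relative to the median of all features. Ldhc, at 0.42 ± 0.13 (edgeR adjusted p = 0.125), Hk1, at 0.65 ± 0.30, Gapdh, at 0.11 ± 0.13, and Aldoa, at -1.26 ± 0.36 (edgeR adjusted p = 0.0961), did not pass. With its near-identical copies summed Gapdh passed, at 0.97 ± 0.10 (edgeR adjusted p = 0.00359). Gapdhs, at 0 in mutant IP, was at least 33.9-fold lower than the mutant input mean of 3.92 CPM against the same floor of 3 counts per library. Gapdhs and Ldhb passed the expression filter of this fit through mutant input alone. Their lower direction in IP was thus set in advance, and the call of Ldhb is no support. The calls apart from it were Gpi1, Slc2a3 and Ldha. Leaving out 1 mutant left 1 to 3 calls among the 10, and leaving out both 12 and 69 left 0.

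Medians of all features were -0.63 in mutants and -0.60 in wild types in these fits, and -0.34 and -0.15 over annotated genes, so a value near 0 stood above most features. Relative to the all-feature median, Ldhc was at 1.05 in mutants and 1.5 in wild types, Slc2a3 at 1.56 and 2.14, Gpi1 at 2.26 and 2.56, and Aldoa at -0.63 and -0.01. Each genotype was fitted on its own, with 22918 features in mutants and 34864 in wild types. Values of the genotypes are thus not on a common scale here, and their difference is read from the joint test that follows.

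The change of ribosome association between genotypes was tested as an interaction over all 14 libraries. The median log2 difference in this test was -0.29 over all features, -0.20 over annotated genes and -0.23 over the 10 genes. Values near -0.29 thus matched the typical feature. The IP/input ratio of Ldhc was 0.95, 1.34, 1.59 and 1.44 in the 4 mutants against 1.70, 1.57 and 1.19 in the 3 wild types, which overlapped (log2 difference -0.16 ± 0.20). For Slc2a3 it was 2.13, 1.25, 1.80 and 2.49 in mutants against 2.38, 2.47 and 2.06 in wild types (-0.30 ± 0.23). For Gapdh it was 1.19, 0.99, 1.16 and 0.90 in mutants against 1.48, 1.40 and 1.54 in wild types, with every mutant lower (log2 difference -0.49 ± 0.15, unadjusted p = 0.0148, edgeR adjusted p = 0.492). That direction turned once near-identical copies of Gapdh were added, an alternative chosen after seeing the data (log2 difference 0.25 ± 0.11, unadjusted p = 0.0521, edgeR adjusted p = 0.694). With copies, and with counts scaled to the library total alone, the ratio was 1.88 to 2.12 in mutants against 1.48 to 1.63 in wild types, so that every mutant was higher. On that scale Gapdh without copies was at 0.93 to 1.28 in mutants against 1.36 to 1.53 in wild types. Ldhb was at 0.0045 in mutant 12, with no IP count in the other mutants, against 0.08, 0.11 and 0.24 in wild types (log2 difference -7.94 ± 1.47, unadjusted p = 0.00088, edgeR adjusted p = 0.443). This fitted Ldhb value rests on the zeros, and its SE does not measure the spread among animals. It ran from -12.7 to -7.33 when 1 animal at a time was left out. Gapdhs had no IP count in mutants, against ratios of 0.16, 0.22 and 0.12 in wild types.

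None of the 10 genes passed the interaction test, and 0 of 16014 features did, or 0%. By unadjusted p under 0.05, 3 genes were lower (Gapdhs, Ldhb and, counted without its copies, Gapdh), beside 6.74% of features lower and 0.475% higher. DESeq2 called Gapdhs and Ldhb among 979 features, and limma on TPM called none of the 10. Without the animal as a block, edgeR called the same 2 genes. The 3 genes were those in which every mutant lay below every wild type, as 8.61% of features did, and in 0 genes did every mutant lie above, as in 1.26% of features.

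**Figure D2:**
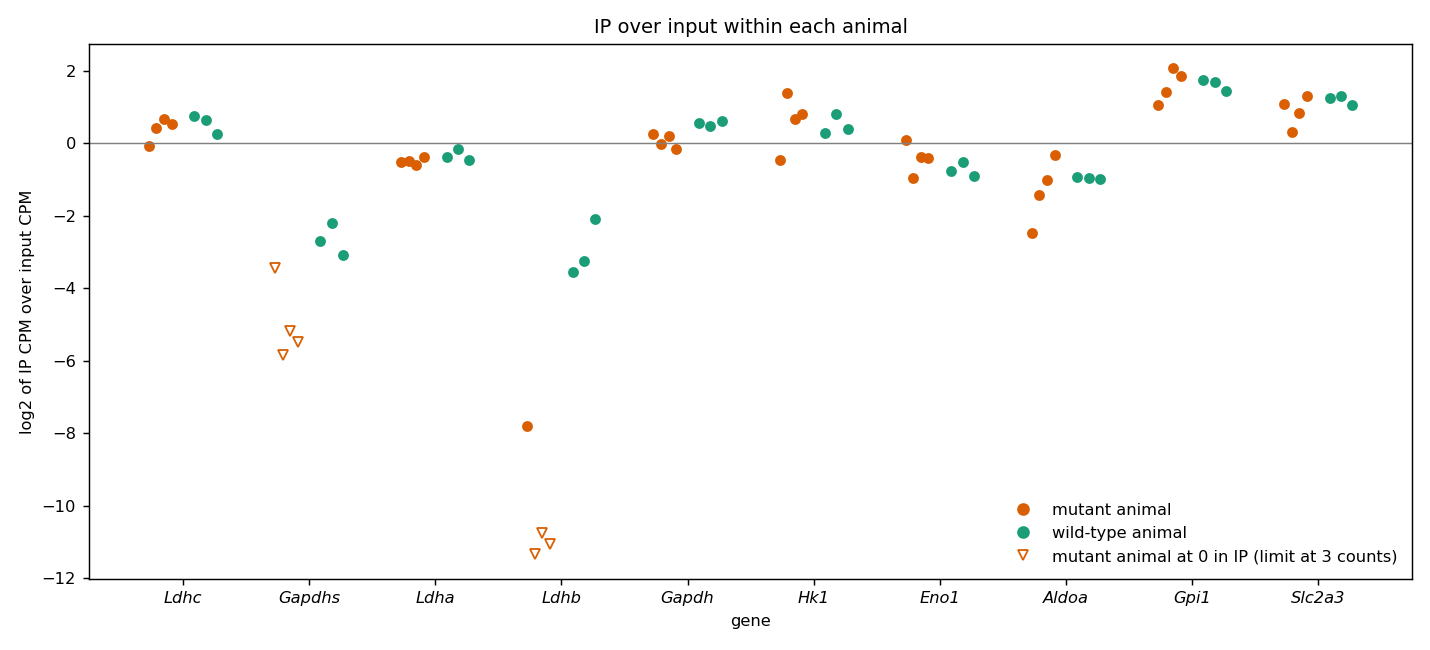
Log2 of IP CPM over input CPM within each animal for the 10 genes (orange, mutants, and green, wild types; open triangles, mutants at 0 in IP, drawn at the limit of 3 counts). Gpi1 and Slc2a3 lie above 0 in all 7 animals, Ldhb and Gapdhs below 0, and for Gapdh the mutants, at ratios of 0.90 to 1.19, lie below the wild types, at 1.40 to 1.54, an order that turns when near-identical copies, not drawn here, are added.

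Pairing a germ cell isoform with its counterpart inside each library needs no scaling between libraries. Ldhc over Ldha in input was 2.92, 2.29, 2.48 and 2.53 in mutants against 2.74, 2.83 and 3.14 in wild types. In IP the ratio was 3.26, 4.29, 5.32 and 4.46 in mutants against 5.82, 4.86 and 5.07 in wild types. The ratio was higher in IP than in input in 7 of 7 animals, by 0.79 ± 0.32 on the log2 scale (SD), or 1.73-fold (exact sign-flip permutation test, two-sided, p = 0.0156, the smallest that the flips allow, adjusted p = 0.0857). Between genotypes it overlapped in input (log2 difference -0.19, exact permutation test over 35 splits, two-sided, p = 0.143) and in IP (-0.29, exact permutation p = 0.2).

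Ldhc over Ldhb in input was 7.17, 3.39, 4.36 and 3.19 in mutants against 10.5, 9.72 and 11.7 in wild types. The groups did not overlap, with a log2 difference of -1.31 (exact permutation test, two-sided, p = 0.0571, adjusted p = 0.114). In wild-type IP this ratio was 204, 141 and 58.5, and in mutant IP it could be formed for mutant 12 alone, at 1518. Gapdhs over Gapdh in input was 0.0072, 0.021, 0.014 and 0.033 in mutants against 0.14, 0.059 and 0.16 in wild types. Gapdh was taken without its copies here. The log2 difference was -2.75, with every mutant lower (exact permutation test, two-sided, p = 0.0286, the smallest that 35 splits allow, adjusted p = 0.0857). Of 12 planned ratio tests 6 could be made, since the others met a gene at 0, and p-values were adjusted over these 6. None passed after adjustment.

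**Figure D3:**
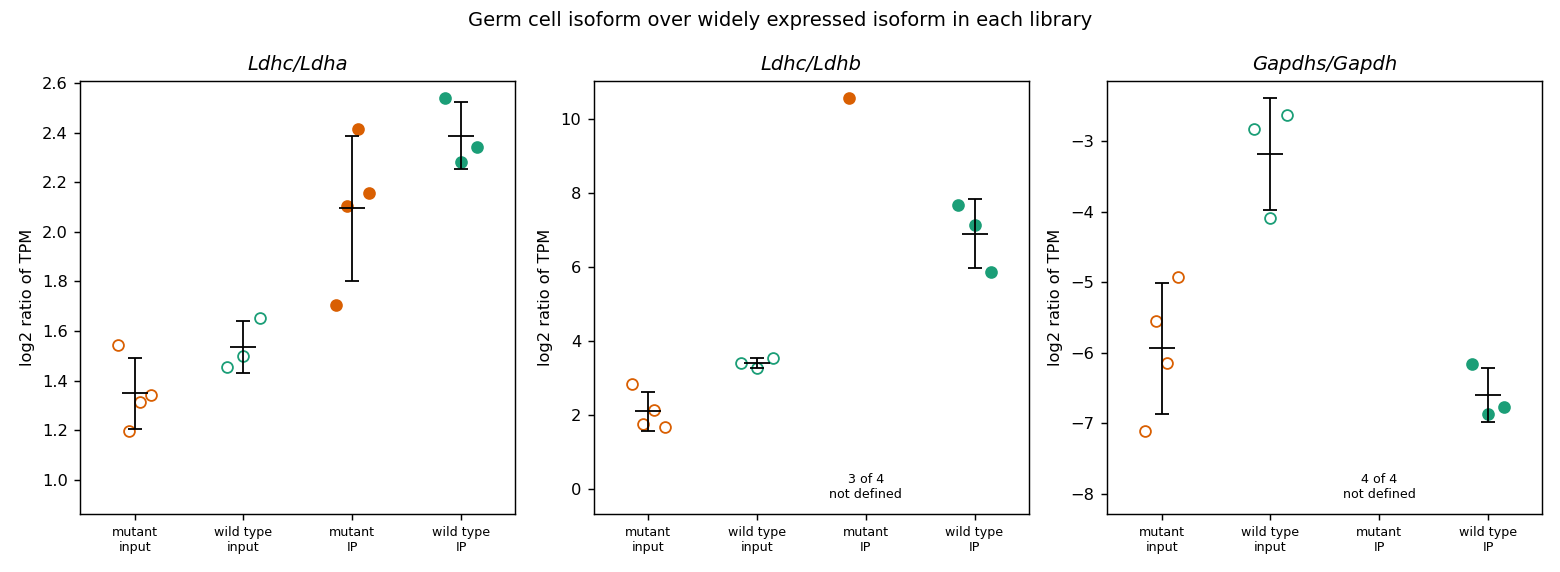
Log2 ratio of TPM, germ cell isoform over widely expressed isoform, in each library by genotype and fraction (points, libraries; bars, mean and SD where every ratio is defined). Gapdhs/Gapdh in mutant input, at 0.0072 to 0.033, lies below wild-type input, at 0.059 to 0.16, and Ldhc/Ldhb in mutant input, at 3.19 to 7.17, below 9.72 to 11.7.

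Transcripts of Hk1 were split by the start exons printed above. Those with the spermatogenic start exon held 31.7, 0.91, 25.2 and 30.5% of Hk1 counts in mutant input against 43.2, 43.5 and 40.9% in wild-type input. In IP they held 8.04, 27.2, 8.32 and 22.7% in mutants against 31, 33.5 and 28.2% in wild types. Every mutant lay below every wild type in both fractions in these shares of counts. The shares were not tested, and the frequency of such an order among other genes was not examined. In TPM the IP shares overlapped, with 122 of 162 TPM in mutant 69 against 120 of 190 TPM in wild type 140. The first exon of Hk1-205 held 70.4 ± 12.3% in mutant IP against 62.2 ± 3.42% in wild-type IP, and 70.3 ± 20.2% in mutant input against 52.7 ± 4.10% in wild-type input. Hk1-202 held 12.3 ± 6.19% in mutant IP against 5.91 ± 0.67% in wild-type IP. On the TPM scale the largest part of Hk1 was Hk1-217, a model of 296 bases that holds the spermatogenic start exon and has no annotated start codon, at 68.3 ± 16.0 TPM in mutant IP against 109 ± 12.7 TPM in wild-type IP, so TPM sums of Hk1 weigh short transcripts heavily.

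Slc2a3-203, the form with the skipped exon, was found mostly in IP. It had 593, 595, 453 and 465 TPM in mutant IP against 906, 776 and 832 TPM in wild-type IP. In input it had 37.5 TPM in mutant 69 and 0 in the other 3 mutants, against 25.7, 0 and 29.5 TPM in wild types. The full transcript Slc2a3-201 had 385 ± 215 TPM in mutant IP against 817 ± 70.4 TPM in wild-type IP, and 137 ± 18.5 TPM in mutant input against 271 ± 12.7 TPM in wild-type input. Slc2a3-208, a fragment of 315 bases, was at 231 ± 110 TPM in mutant IP against 40.0 ± 69.3 TPM in wild-type IP. RSEM divides reads among overlapping transcripts by estimate, and no transcript was tested.

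The remaining genes were simpler or less stable. Ldhc-201 made up 91.5 to 98.8% of Ldhc TPM in every group on average, and Ldhb-201 99.2% or more. Ldha-201 made up 83.5% of Ldha in mutant IP against 96.0% in wild-type IP. Gapdhs-203 held 79.9% of Gapdhs in wild-type input on average and Gapdhs-201 80.0% in wild-type IP. The Gapdh sums included 2 short processed transcripts, Gapdh-204 and Gapdh-208, of 560 and 483 bases, which together with Gapdh-203 held most of its TPM in both IP groups. Aldoa counts joined 2 gene records that share the symbol, and Aldoa-201 ranged over 0 to 44.8 TPM among mutant IP libraries.

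**Figure D4:**
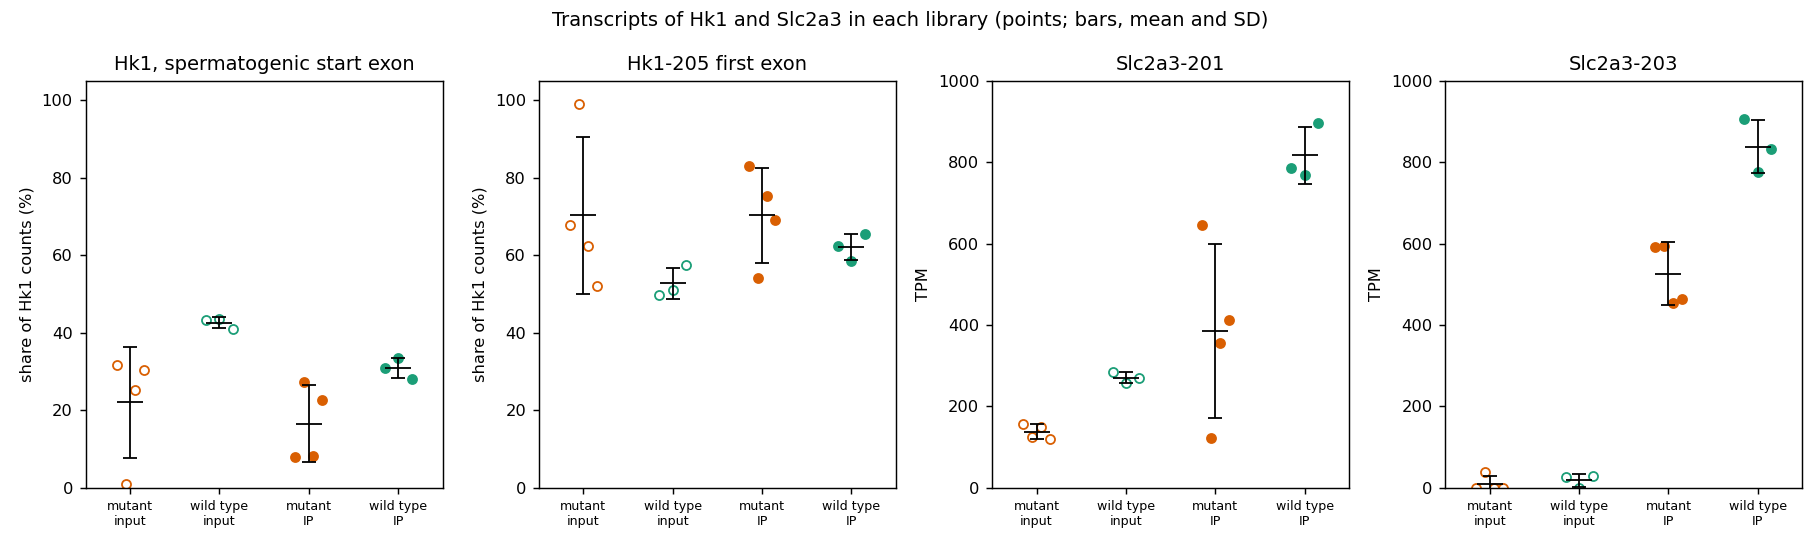
Share of Hk1 counts with the spermatogenic start exon and with the first exon of Hk1-205, and TPM of Slc2a3-201 and Slc2a3-203, in each library (points; bars, mean and SD). The spermatogenic share of counts is lower in every mutant than in every wild type in both fractions, an order that does not hold for shares of TPM in IP. Slc2a3-203 is at 453 to 906 TPM in IP and at 37.5 TPM or less in input.

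Near-identical copies limit what can be said of Gapdh and Eno1. Gapdh has 172 annotated copies of at least 90% identity over 300 bases, led in counts by Gm7336 at 99.8%, and they held 19.6 to 68.9% of the counts of gene and copies together. Gapdh alone, in CPM over the whole library, had 110, 152, 144 and 119 in mutant input against 85.3, 99.9 and 91.6 in wild-type input, with no overlap. With the copies it was at 155.5 to 189 CPM in mutants against 152 to 159.6 in wild types, which overlapped. In IP the order changed: alone, mutants at 110 to 174 overlapped with wild types at 122 to 141, and with the copies mutants stood at 355 ± 45.2 CPM (292 to 397) against 247 ± 9.64 (237 to 256) in wild types, with no overlap. Refitted with the copies summed, Gapdh had a log2 difference of 0.11 ± 0.11 in input and of 0.38 ± 0.11 in IP (unadjusted p = 0.0111, edgeR adjusted p = 0.140), and did not pass in either.

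Eno1 has 4 copies, of which Eno1b (99.5% identical) and Gm4735 (99.6%) took most counts. Alone, Eno1 had 67.4, 75.1, 84.3 and 88.4 CPM in mutant input against 100.2, 96.6 and 109.7 in wild-type input. With the copies it was at 130 ± 12.6 in mutants against 133 ± 11.2 in wild types, and the groups overlapped. Aldoa has 6 copies that held up to 10.1%, mainly Aldoart1. No copy was found for Ldhc, Gapdhs, Hk1 or Slc2a3, and those of Ldha held up to 0.83%.

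**Figure D5:**
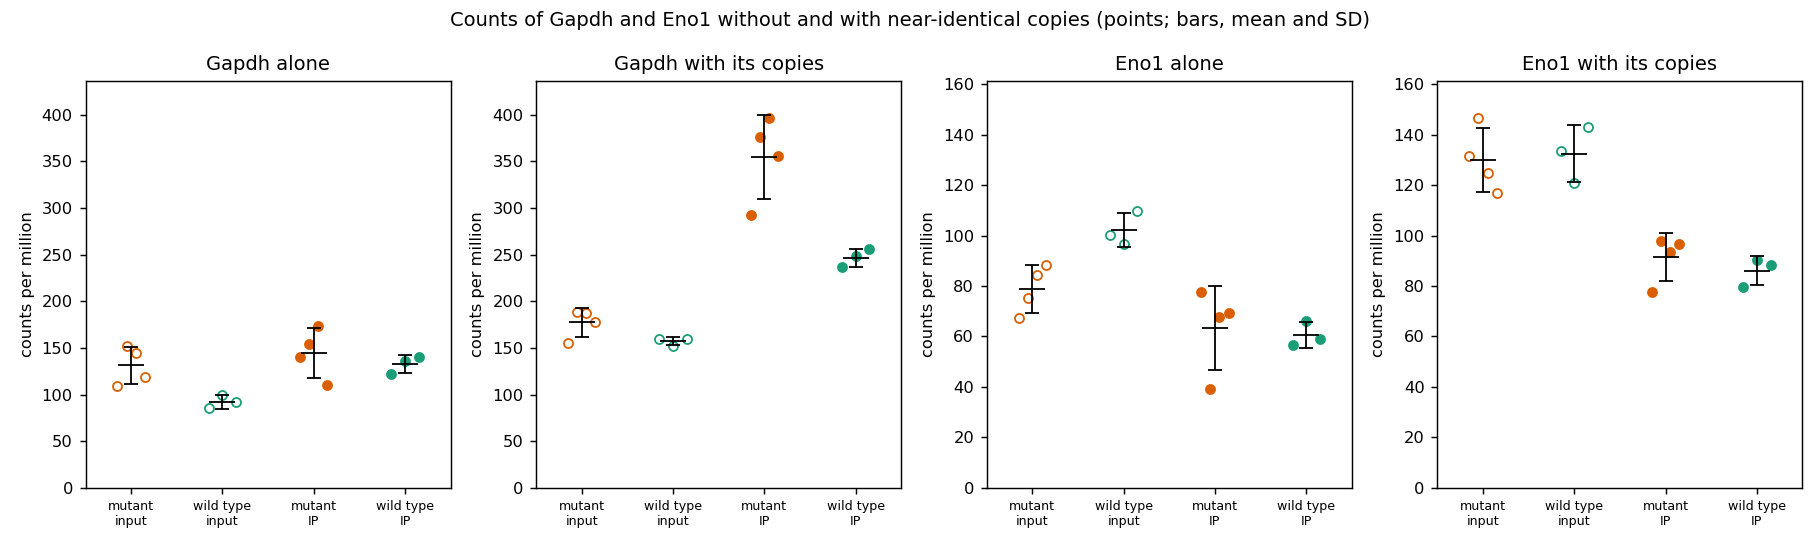
CPM of Gapdh and Eno1 alone and with near-identical annotated copies in each library (points; bars, mean and SD). The difference in input between mutants and wild types is seen for Gapdh and Eno1 alone and not with their copies.

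The rest of the pathway was read from a list of 48 genes of glycolysis, lactate transport and pyruvate use. In input 0 of 43 measured genes passed edgeR's test, with 4 higher and 7 lower at unadjusted p under 0.05, beside 1.60% of all features higher and 4.76% lower. In IP 0 of 40 passed, with 0 higher and 7 lower at that level, beside 1.34% and 10.3%. Median log2 differences were -0.12 in input and -0.22 in IP, against -0.18 and -0.15 over all features. None of the further germ cell forms passed between genotypes. Pgk2, the testis form of phosphoglycerate kinase, was at 36.3 TPM in mutant input against 74.4 TPM in wild-type input (log2 difference -0.80 ± 0.28, edgeR adjusted p = 0.521), with overlap in CPM, and at 11.3 TPM in mutant IP against 11.6 TPM in wild-type IP. Ldhal6b, a lactate dehydrogenase relative expressed in testis, was at 135 TPM in mutant input against 256 TPM in wild-type input and at 258 TPM in mutant IP against 451 TPM in wild-type IP (IP -0.80 ± 0.16, edgeR adjusted p = 0.114). Pdha2, the testis subunit of pyruvate dehydrogenase, was at 41.5 TPM in mutant input against 64.7 TPM in wild-type input and at 237 TPM in mutant IP against 345 TPM in wild-type IP (IP -0.53 ± 0.08, edgeR adjusted p = 0.114). Neither of the last pair overlapped between genotypes in CPM in either fraction. Pgk1, the X-linked counterpart of Pgk2, was at 8.96 TPM in mutant input against 8.91 TPM in wild-type input, and Pdha1 at 4.86 against 3.72 TPM. Tpi1 was at 40.0 TPM in mutant input against 37.9 TPM in wild-type input. Aldoart1 and Aldoart2, aldolase retrogenes, and Eno4, a testis enolase, had log2 differences of -1.16 ± 1.49, -0.58 ± 0.49 and -0.22 ± 0.26 in input and overlapped between genotypes in both fractions.

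In IP against input, 17 of 42 pathway genes passed in wild types, 11 higher and 6 lower, beside 19.4% of all features, and 9 of 39 in mutants, 5 higher and 4 lower, beside 9.91%. Each genotype was again fitted on its own, so mutant and wild-type values below are not on a common scale. Of 6 pyruvate dehydrogenase genes, 3 rose in both genotypes, Pdha2 by 1.56 in mutants and 2.01 in wild types, Pdhb by 1.08 and 1.5, and Dlat by 0.92 and 1.41, on the log2 scale. Dld, at 0.31 in mutants, and Pdhx, at -0.10, passed in wild types alone, at 0.66 and 1.17 (edgeR adjusted p = 0.0256 and 0.0145), and Pdha1, at -0.58 in mutants and 0.05 in wild types, passed in neither. Pfkm, a phosphofructokinase, rose by 0.80 in mutants and 1.52 in wild types, and Bsg, the partner of lactate transporters, by 0.93 and 1.21. The lactate transporter Slc16a7 fell by 2.55 in mutants and 2.20 in wild types, and Hk2 by 1.67 and 0.96. Pgk2 was at -3.44 ± 0.76 in mutants, which did not pass (edgeR adjusted p = 0.0511), and fell by 3.13 ± 0.17 in wild types (edgeR adjusted p = 0.00634). In wild types Pgk2 and Gapdhs thus passed as lower in IP than in input, and Ldhc as higher. Slc2a5, a fructose transporter, fell by 1.67 in mutants and 0.52 in wild types, and Pkm, pyruvate kinase, by 0.72 in mutants. In wild types Pfkp rose by 0.78 and Ldhal6b by 0.42, and Pfkl and Aldoart1 fell by 1.57 and 2.21. In the interaction test 0 of 35 passed, with 0 higher and 2 lower at unadjusted p under 0.05, beside 0.475% and 6.74% of all features.

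Genes whose levels ran most like those of 4 members over the 14 libraries were sought among 8635 to 8636 annotated genes, as a description. The highest Pearson r of log2 CPM was 0.94 with Spc25 for Ldhc, followed by Tekt4 (0.94) and Nkapl (0.93). For Slc2a3 the leaders were Kif15 (0.96), Ccnb2 (0.95) and Cntd1 (0.95), and for Ldha Rasl2-9 (0.96), Gk2 (0.96) and Crat (0.95). For Gapdhs they were Zmat3 (0.96), Zfp110 (0.96) and Gm10593 (0.95). The libraries share animals and split by fraction, so these values carry the IP to input difference that many genes have.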

How the data were processed

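Input and IP libraries of 7 testes were sequenced, and the authors deposited 1 RSEM 1.3.3 table per library (GRCm38, per the labels) with expected counts and TPM for each of 182829 entries. These were 133849 Ensembl transcripts, 48888 assembled transcripts and 92 spike-ins. Expected counts, which RSEM estimates by dividing shared reads, were summed by gene symbol through GENCODE M21, rounded and left unnormalized, and TPM was summed likewise. Entries without an annotated gene stayed features of their own. All features passing filterByExpr were fitted with edgeR 4.0.16 (TMM factors, robust quasi-likelihood test, R 4.3.3) and adjusted after Benjamini and Hochberg, with 0.05 as threshold. The animal was a block in IP against input and in the interaction, because each animal gave both libraries. Same-animal deviations correlated at 0.06 to 0.11 in mutants and 0.15 to 0.23 in wild types. Features with a zero in an input library were not tested in the interaction. Ratios of TPM were tested by exact permutation (scipy 1.17.1). Fits with DESeq2 1.42.0, limma 3.58.1 on log2(TPM + 0.1) and log2(TPM + 1), RLE factors, other filters, fewer features, fewer animals and, added after seeing the data, counts summed with near-identical copies were alternatives. Copies were found with blastn 2.17.0 at 90% identity over 300 bases. The edgeR fits were tested on simulated data.

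The 10 genes, the pathway and marker lists and the tests were chosen with earlier results of these data known. Named were all 10 genes, pathway genes past a test (up to 6 per direction by smallest p), a fixed set of testis forms (Pgk2, Aldoart1, Aldoart2, Eno4, Ldhal6b, Pdha2 with Tpi1, Pgk1 and Pdha1), and the 3 genes most alike for Ldhc, Gapdhs, Ldha and Slc2a3 among those with a mean log2 CPM of at least 3. The labels do not give a batch, and replicate animals of a group differed beyond counting noise.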

Additional observations from a re-analysis of the deposited data

Results flagged for a closer look

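Of 37 groups of 4 mutant values (the 10 genes and their main transcripts), 2 held 1 library far from the other 3. Chance would give about 1 in 20 for values that vary continuously, which values at 0 do not. Ldhb in mutant IP stood at 0.84 TPM in animal 12 against 0 in the other 3 mutants, and Slc2a3-203 in mutant input stood at 37.5 TPM in animal 69 against 0 in the other 3. Both are single libraries above 0 among zeros, a pattern that the rule flags whatever the value above 0. Groups of 3 wild types were not examined in this way.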

How the results depend on the processing

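Of the fits for single genes, 660 values kept their direction and side of the threshold, 39 lost a call, 43 gained one and 52 changed sign. Calls among the 10 genes moved most with the tool: DESeq2 called 4 in input (1143 features), 5 in IP (2504) and 2 in the interaction (979), each against 0 by edgeR. In IP between genotypes, no filter gave 1 call and limma on log2(TPM + 0.1) and log2(TPM + 1) gave 4 and 3. In IP against input in mutants, against 4 calls, no filter gave 2, limma 8 and 8, leaving out 1 animal 1 to 3, and leaving out 12 and 69 gave 0. In wild types, against 8 calls, leaving out 1 animal gave 0 to 5. Without the replicate block there were 4 calls in mutants, 3 of them shared, 9 in wild types, 8 of them shared, and 2 in the interaction, where leaving out 12 and 69 gave 1. Leaving out 1 animal gave 0 to 0 calls in input, in IP and in the interaction. The cause of these changes was not tested.

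Reversed log2 values lay near 0 in most cases. Gapdh in IP between genotypes turned to 0.086 (DESeq2), 0.086 (RLE), 0.081 (at least 10 counts in every library), 0.16 and 0.16 (limma) and 0.018 (annotated genes alone), and Eno1 to 0.025, 0.025 and 0.023 in the first 3. In IP against input, Gapdh in mutants turned to -0.023, -0.023, -0.057, -0.030 (annotated genes alone) and -0.31 (protein-coding transcripts alone, added after seeing the data). Ldha and Eno1 in mutants turned to 0.58 and 0.59 with limma at 0.1, and 0.57 and 0.58 at 1. Ldha in wild types turned to -0.0081 (no filter), -0.16 (at least 10 counts), -0.16 (annotated genes alone) and -0.083 (protein-coding transcripts alone). In the interaction, limma gave Ldhc 0.055 and 0.054, Ldha 0.16 and 0.16, Slc2a3 0.20 and 0.20, and Gapdhs 0.045 at log2(TPM + 1). Gpi1 gave 0.025, 0.024 and 0.060 with DESeq2, RLE and the 10-count filter, and 0.029 without the replicate block, where Hk1 gave -0.020. Without animals 12 and 69, Aldoa gave 0.22, Gpi1 0.27 and the Ldhc/Ldha ratio of IP minus input 0.11.

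With near-identical copies summed (added after seeing the data), Gapdh turned to 0.38 in IP between genotypes and to 0.25 in the interaction, and passed in IP against input in mutants at 0.97, the fifth call there.

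Leaving out each animal in turn, Gapdh in IP ranged over -0.11 to 0.12, Eno1 over -0.20 to 0.10 and Aldoa over -0.25 to 0.26. Ldha IP/input in wild types ranged over -0.050 to 0.030. In the interaction Hk1 ranged over -0.19 to 0.44, Aldoa over -0.69 to 0.016 and Gpi1 over -0.32 to 0.13, and the Ldhc/Ldha ratio of IP minus input over -0.22 to 0.088. The scale also moved with the fit: the log2 IP/input of Ldhc differed between the fit of 14 libraries and that of 1 genotype by -0.04 in mutants and -0.35 in wild types. With 3 and 4 animals, counts of 0 to 18.7 for Ldhb and 0 for Gapdhs in mutant IP set the limit of depth there.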
